A study of Mus musculus with 6 samples.

Results

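The complement and coagulation cascade genes of the mouse were selected by the KEGG annotation of the deposited gene table, as every gene whose terms include "Complement and coagulation cascades", and 86 of 34745 genes qualified. No count or FPKM value entered that rule, but the pathway was picked with results of this contrast known, so the differences given for single members are descriptions and support nothing about the pathway. The libraries hold total RNA of the left ventricle from male, wild-type (WT) C57BL/6 mice, an inbred laboratory strain, labelled as aged 8 weeks. 3 libraries are labelled TAC, for transverse aortic constriction, a ligature on the aortic arch that makes the left ventricle pump against raised pressure. The other 3 are labelled Sham, for the same surgery without the ligature, and tissue was taken 6 weeks after surgery in both groups. The series title names chronic heart failure from pressure overload, and the comparison asks which genes differ in it. The labels do not state whether the 3 libraries of a group are separate mice, so the p-values cover only the spread seen among these libraries.

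Complement is a set of plasma proteins that cut and activate one another on a surface. The classical route starts when C1q binds antibody or dying cells and activates the proteases C1r and C1s. The lectin route runs through the MASP proteases, and the alternative route through factor B and factor D. All routes meet at C3, and the terminal components then assemble a pore in the membrane, while regulators hold the cascade back on host cells. Coagulation is a second protease cascade that leads from tissue factor to thrombin and fibrin, and plasmin dissolves the clot. The liver makes most of the circulating proteins of both cascades, while macrophages, fibroblasts and endothelial cells make some of them locally, C1q being a known product of tissue macrophages.

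Counts over genes summed to between 17399510 and 28401399 per library, so that a gene with 0 counts could have stood at up to 0.106 to 0.172 CPM (counts per 1000000 counts of the library), the limit that 3 counts set. This limit covers counting error only. Levels below are CPM scaled by TMM, a normalization for library composition, where libraries are compared, and FPKM, a level per gene length, where genes are compared. In the check of the labels, the pressure-overload genes went against them. Nppa, which encodes atrial natriuretic peptide and is known to rise under pressure overload, stood at 92.2, 64.3 and 95.1 CPM in the TAC-labelled libraries 1, 2 and 3 and at 772, 1894 and 595 CPM in the Sham-labelled ones 1, 2 and 3. Of 6 genes of that programme, all 6 had lower estimates under the TAC label, and Acta1, Ankrd1, Nppa and Xirp2 (4 of them) were called. Myh7 (beta myosin heavy chain) overlapped, with TAC 3 apart from the other TAC-labelled libraries, at 212, 65.7 and 6050 CPM in TAC 1, 2 and 3 and at 1816, 6323 and 2072 CPM in Sham 1, 2 and 3. Each direction below therefore refers to the libraries by their labels. Ventricular muscle was present in every library, with 10 cardiomyocyte genes summing to between 118570 and 173390 CPM.

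Of the 86 members, 42 had enough counts to be tested, 15 had no count in any library, 14 had 1 to 10 counts in all 6 libraries together, and 31 reached a mean of 1 FPKM. In edgeR's quasi-likelihood test with Benjamini-Hochberg adjustment over all 15198 genes tested, 6 members passed an adjusted p of 0.05, and all 6 were lower in the TAC-labelled libraries. C4b, Masp1, Cfb, C7 and Serping1 are described here. In the coordinates of the gene table (build GRCm38) they lie at chr17:34728380-34743882 (C4b), chr16:23451785-23520590 (Masp1), chr17:34856374-34862518 (Cfb), chr15:4988762-5063773 (C7) and chr2:84765387-84775444 (Serping1). In this comparison 1.43% of all tested genes were called in either direction and 1.11% were called lower in the TAC-labelled libraries. Estimates were lower there for 32 tested members and higher for 10, and the median log2 difference (TAC minus Sham) was -0.64 over the members and 0.0075 over all tested genes. A level in every library labelled TAC below every library labelled Sham was found for 17 tested members, against 13.6% of all tested genes. The reverse order was found for 3 members, Cd59a, Cd59b and F3, against 13.4% of all tested genes, and the groups overlapped for 22. Because genes with few counts pass the filter only when some libraries hold enough reads, these counts describe the 42 tested members and not all 86. An unadjusted p under 0.05 was found for 21 of the 42 and for 20.9% of all tested genes, the share beside which the smaller counts at that level below are to be read.

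The number of calls rested on single libraries. Leaving out TAC 1, TAC 2, TAC 3 or Sham 2 ended all 6 calls, leaving out Sham 3 kept 2, Serping1 among them, and leaving out Sham 1 gave 3, C4b and Masp1 among them, while every estimate of the 6 genes stayed below 0. DESeq2 called 14 of the 45 members that it tested, all lower in the TAC-labelled libraries, where it called 7.44% of all genes in either direction. The library labelled Sham 2 held the highest level of 17 of the 42 tested members (40.5%), whereas it held the highest level of 21.3% of all tested genes. TAC 3 held the lowest level of 19 of them (45.2%) and of 22.9% of all tested genes.

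**Figure D1:**
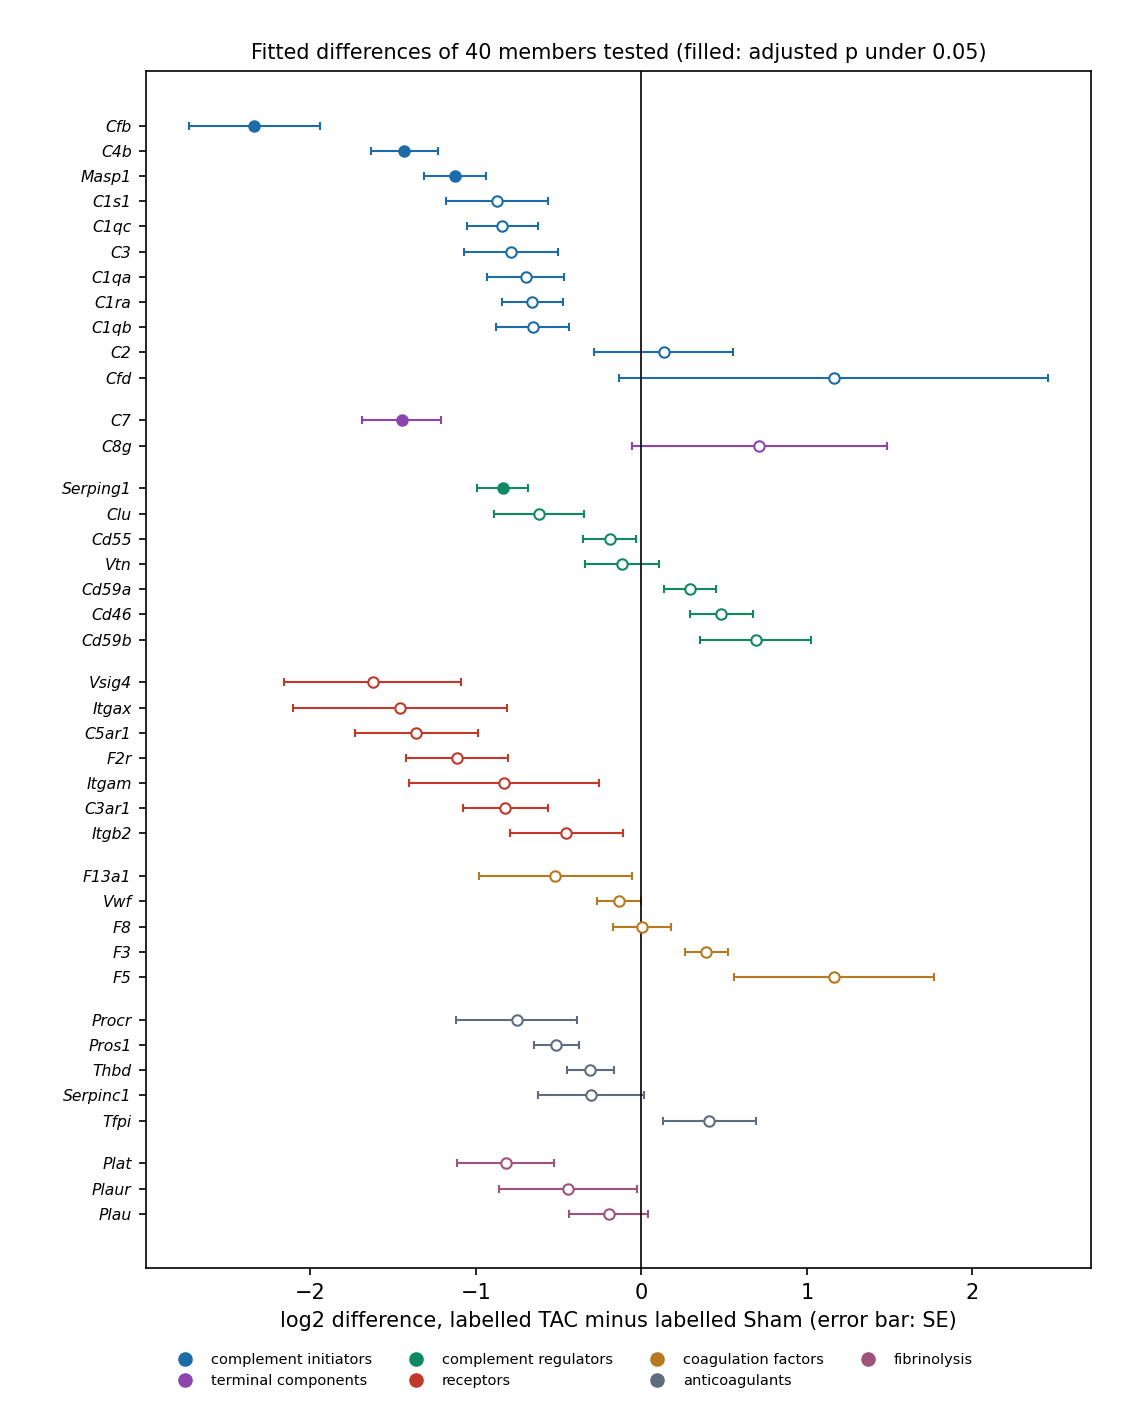
Fitted log2 difference (TAC minus Sham, x axis) of the members described here that were tested, ordered by role, with bars of 1 SE on each side from edgeR. Filled points (C4b, Masp1, Cfb, C7 and Serping1) have an adjusted p under 0.05 and lie left of 0, and the 10 estimates right of 0 include F3, Cd46, Cd59a and Cd59b.

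Expressed per length, the members of these ventricles were led by Clu, which encodes clusterin, a chaperone that also blocks the terminal pore, at a mean of 81.4 FPKM over the 6 libraries. C3, the central component, stood at 40.9 FPKM and C1qb, a chain of C1q, at 30.4 FPKM. Serping1, the inhibitor of C1r and C1s, stood at 24.8 FPKM, Thbd (thrombomodulin) at 24.2 FPKM, F2r (the thrombin receptor PAR1) at 23.0 FPKM and F13a1 (the A chain of factor XIII) at 22.9 FPKM. At the other end, genes whose products the liver is known to secrete had no count in any library: Fga and Fgb (fibrinogen chains), Plg (plasminogen), Proc (protein C), C8a, C8b and C9 (terminal components), Mbl1 and Mbl2 (mannose-binding lectins), Kng1 (kininogen) and Cpb2. C1rb, F13b, Serpina1a and Zp3r, which are not sorted by source here, were also at 0. The hepatocyte marker list was mixed. Alb (albumin) had 6 and Apoa1 2 counts over all libraries, and 7 of the 11 markers in the table had too few counts to test. Trf (transferrin) held 5045 counts and was called lower in the TAC-labelled libraries (edgeR adjusted p = 0.0418), and Ahsg, Cyp2e1 and Ttr held 565, 264 and 65. The list summed to between 33.6 and 39.6 CPM in the TAC-labelled libraries and between 52.7 and 62.0 CPM in the Sham-labelled ones, and its part in the members was not tested.

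**Figure D2:**
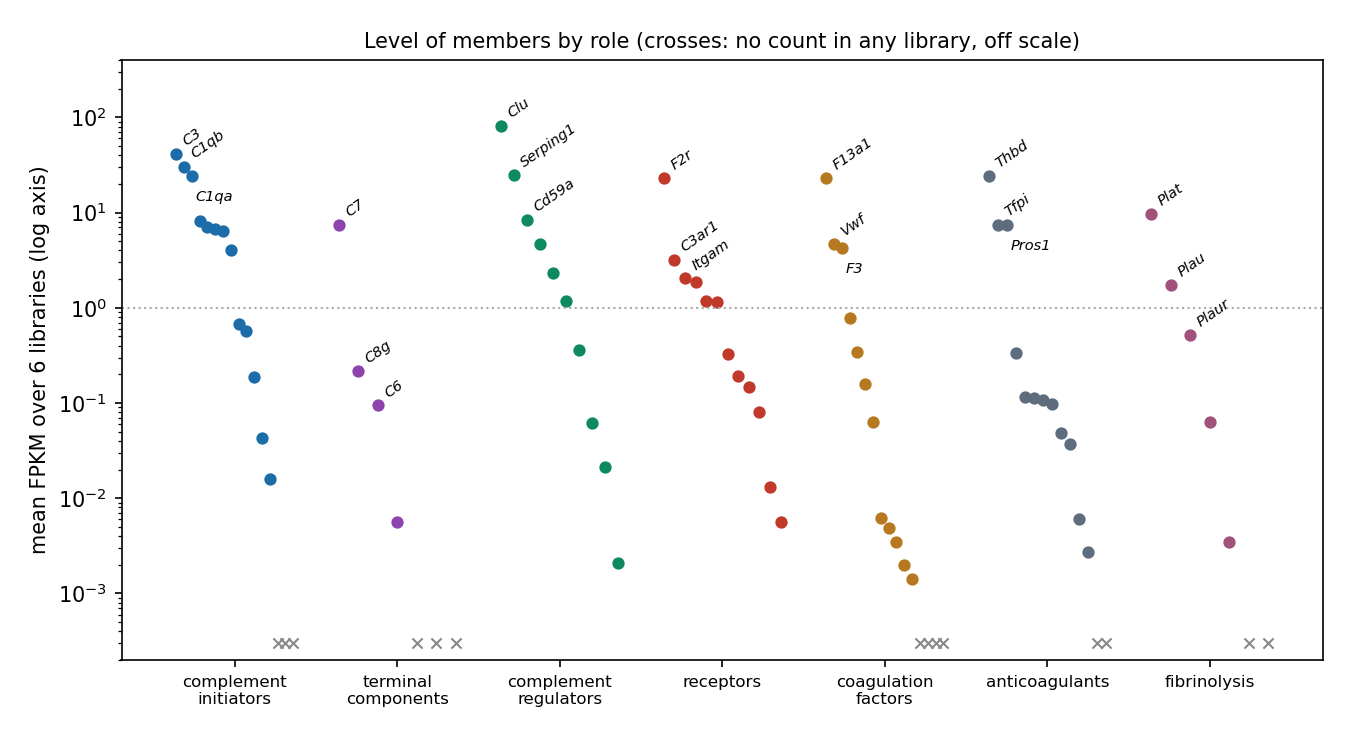
Mean FPKM over 6 libraries (log axis) of the members with a role that are described here, in order of level, with the 3 highest of these named in each role, a dotted line at 1 FPKM and crosses at the bottom for members with no count. Clu is the highest at 81.4 FPKM, with C3 at 40.9 FPKM and C1qb at 30.4 FPKM among the initiators.

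Initiators were the group with the most tested members and the most calls. Of 16, 11 were tested, and 9 had lower estimates in the TAC-labelled libraries, as 49.1% of all tested genes did. Calls numbered 3, against 1.43% of all tested genes, and the median log2 difference was -0.79. The classical and lectin genes are described first. C4b, which encodes complement component C4, stood at 31.6, 20.4 and 20.3 CPM in TAC 1, 2 and 3 and at 71.3, 69.2 and 54.7 CPM in Sham 1, 2 and 3. The groups were far apart, with means of 24.1 ± 6.51 and 65 ± 9.05 CPM (SD, n = 3 libraries each), and the fitted level was 2.70-fold lower in the TAC-labelled libraries (log2 difference -1.43, SE 0.20, edgeR adjusted p = 0.0285). C4b has a near-identical neighbour, C4a, which is outside the term and held 42 counts in all, and the handling of shared reads is not given in the sources here, so the C4b value is uncertain to that extent. Masp1, the protease MASP-1 of the lectin route, stood at 12.3, 9.72 and 10.8 CPM in the TAC-labelled libraries and at 20.6, 29.9 and 21.0 CPM in the Sham-labelled ones. All 3 TAC values lay below all 3 Sham values, 2.18-fold apart (log2 difference -1.13, SE 0.18, edgeR adjusted p = 0.0396). The other lectin-route genes of the term were nearly silent, with 22 counts of Masp2 over the 6 libraries and none of Mbl1 or Mbl2.

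The chains of C1q are encoded by 3 neighbouring genes on chromosome 4 (C1qb, C1qc and C1qa, 3616 and 2851 bases apart in the coordinates of the gene table). C1qb stood at 27.9, 31.3 and 17.4 CPM in the TAC-labelled libraries and at 35.4, 46.9 and 38.6 CPM in the Sham-labelled ones. None of the 3 chains overlapped between the groups, and none was called by edgeR: the log2 differences were -0.66 (SE 0.22, adjusted p = 0.158) for C1qb, -0.70 (SE 0.23, adjusted p = 0.157) for C1qa and -0.84 (SE 0.22, adjusted p = 0.0987) for C1qc. DESeq2 called C1qc. Summed over the 3 chains, the level ran from 38.2 to 68.9 CPM in the TAC-labelled libraries and from 82.8 to 105 CPM in the Sham-labelled ones, with TAC 3 lowest and Sham 2 highest. Of the FPKM summed over the chains, C1qb took 46.8% to 50.4% and C1qa 37.2% to 39.7%, with overlap between the groups. The share of C1qc was 11.6% to 12.4% in the TAC-labelled libraries and 12.5% to 14.5% in the Sham-labelled ones, next to each other without overlap.

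Macrophage markers differed in the same direction as C1q. All 15 macrophage markers on the list had lower estimates in the TAC-labelled libraries, as 49.1% of all tested genes did. None was called by edgeR, 9 had an unadjusted p under 0.05 (20.9% of all tested genes) and DESeq2 called 2 (7.44% of all genes). The markers summed to between 161 and 258 CPM in the TAC-labelled libraries and between 319 and 361 CPM in the Sham-labelled ones. Set against that sum, C1q stood at 0.237 to 0.267 in the TAC-labelled libraries and at 0.255 to 0.292 in the Sham-labelled ones, ranges that overlap. In bulk tissue, fewer cells of a type and less RNA per cell cannot be told apart, and the part that macrophages have in the other members was not tested.

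The promoters of C1qb and C1qc are shown because these neighbouring genes differed in the same direction, and that of C7 because it is the called terminal component. The choice was made after their values were seen. Each run is the 300 bases from 250 before to 50 after RefSeq's gene start (GRCm38.p6), 5′ to 3′ on the minus strand, which is the coding strand of all 3 genes: chr4:136886151-136886450 for C1qb, chr4:136892865-136893164 for C1qc and chr15:5063724-5064023 for C7. Capitals mark the letters that matched one of the searched motifs on either strand.
C1qb: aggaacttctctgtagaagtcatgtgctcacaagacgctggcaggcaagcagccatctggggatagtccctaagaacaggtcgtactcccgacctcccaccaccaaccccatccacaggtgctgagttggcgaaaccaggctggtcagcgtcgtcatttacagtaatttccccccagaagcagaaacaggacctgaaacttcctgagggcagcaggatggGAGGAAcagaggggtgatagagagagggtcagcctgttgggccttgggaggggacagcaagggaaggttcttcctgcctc
C1qc: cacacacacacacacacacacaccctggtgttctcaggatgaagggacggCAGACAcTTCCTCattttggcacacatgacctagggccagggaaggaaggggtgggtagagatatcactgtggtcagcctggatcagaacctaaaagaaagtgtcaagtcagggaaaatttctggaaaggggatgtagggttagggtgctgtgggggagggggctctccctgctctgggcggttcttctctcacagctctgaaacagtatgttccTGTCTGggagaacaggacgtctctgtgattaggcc
C7: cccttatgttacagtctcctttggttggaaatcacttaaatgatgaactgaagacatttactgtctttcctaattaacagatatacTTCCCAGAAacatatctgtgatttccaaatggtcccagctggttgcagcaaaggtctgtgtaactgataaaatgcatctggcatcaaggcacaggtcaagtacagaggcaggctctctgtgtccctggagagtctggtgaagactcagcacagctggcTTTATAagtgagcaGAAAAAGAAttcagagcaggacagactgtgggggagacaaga
The 8 motifs searched on both strands were the TATA box as TATAAA, the box CCAAT, a STAT site as TTCNNNGAA, an interferon response core as GAAANNGAA, an AP-1 site as TGANTCA, a C/EBP site as TTGCNNAA, a SMAD site as CAGACA and an ETS core of the PU.1 type as GAGGAA. No match shown overlapped another. C1qb held GAGGAA 30 bases upstream of the start, and C1qc held it on the reverse strand, 193 bases upstream. Of 32544 mouse promoters of the same length, 28.1% hold GAGGAA, so the shared match is a common one. C1qc also held CAGACA at window positions 51 and, on the reverse strand, 266, as 20.9% of promoters do at least once. C7 held TTCNNNGAA 164 bases upstream (8.33% of promoters), GAAANNGAA at window position 259 (8.53%) and TATAAA on the reverse strand at window position 245 (13.6%). Among the 28 tested members that matched the table by symbol, 4 held TTCNNNGAA, 5 held GAAANNGAA, 6 held TATAAA, 7 held CAGACA and 9 held GAGGAA. For the other motifs, 5 of the 28 held CCAAT (37.4% of all promoters), 7 held TGANTCA (7.79%) and 6 held TTGCNNAA (10.8%). A match is a run of letters and shows no binding.

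The proteases that C1q activates sit in a cluster on chromosome 6, where 4 members follow one another with gaps under 100 kb. C1ra stood at 8.85, 9.26 and 10.01 CPM in the TAC-labelled libraries and at 18.3, 14.2 and 11.8 CPM in the Sham-labelled ones (log2 difference -0.66, SE 0.18, edgeR adjusted p = 0.112). DESeq2 called C1ra. C1s1 overlapped between the groups, from 17.3 to 35.5 CPM under TAC and from 30.6 to 53.2 CPM under Sham (log2 difference -0.87, SE 0.31, edgeR adjusted p = 0.173). Their copies C1rb and C1s2 had 0 and 5 counts, and values within these near-identical pairs depend on how shared reads were assigned.

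Factor B gave the largest difference among the called members. Cfb, the protease of the alternative C3 convertase, stood at 1.79, 0.560 and 0.813 CPM in the TAC-labelled libraries and at 5.45, 4.52 and 6.19 CPM in the Sham-labelled ones. It was thus a weakly expressed gene in both groups, 5.05-fold lower in the TAC-labelled libraries (log2 difference -2.34, SE 0.39, edgeR adjusted p = 0.0421). With each library left out in turn, the log2 difference ran from -2.96 (without TAC 1) to -2.03 (without TAC 2). The call was lost each time. C2, which encodes the classical counterpart of factor B and lies 85 bases from it on chromosome 17, stood at 0.713 to 1.499 CPM and 0.600 to 1.34 CPM in the TAC-labelled and Sham-labelled libraries (log2 difference 0.13, SE 0.42, edgeR adjusted p = 0.887). C3 itself stood at 239, 148 and 122 CPM in the TAC-labelled libraries and at 389, 232 and 257 CPM in the Sham-labelled ones. TAC 1 lay above Sham 2, and the difference was not called (log2 difference -0.79, SE 0.28, edgeR adjusted p = 0.177). Cfd, encoding factor D (adipsin), a known product of fat cells, had 60 counts in all, 0 in TAC 1 and in Sham 2, and no consistent order between the groups.

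**Figure D3:**
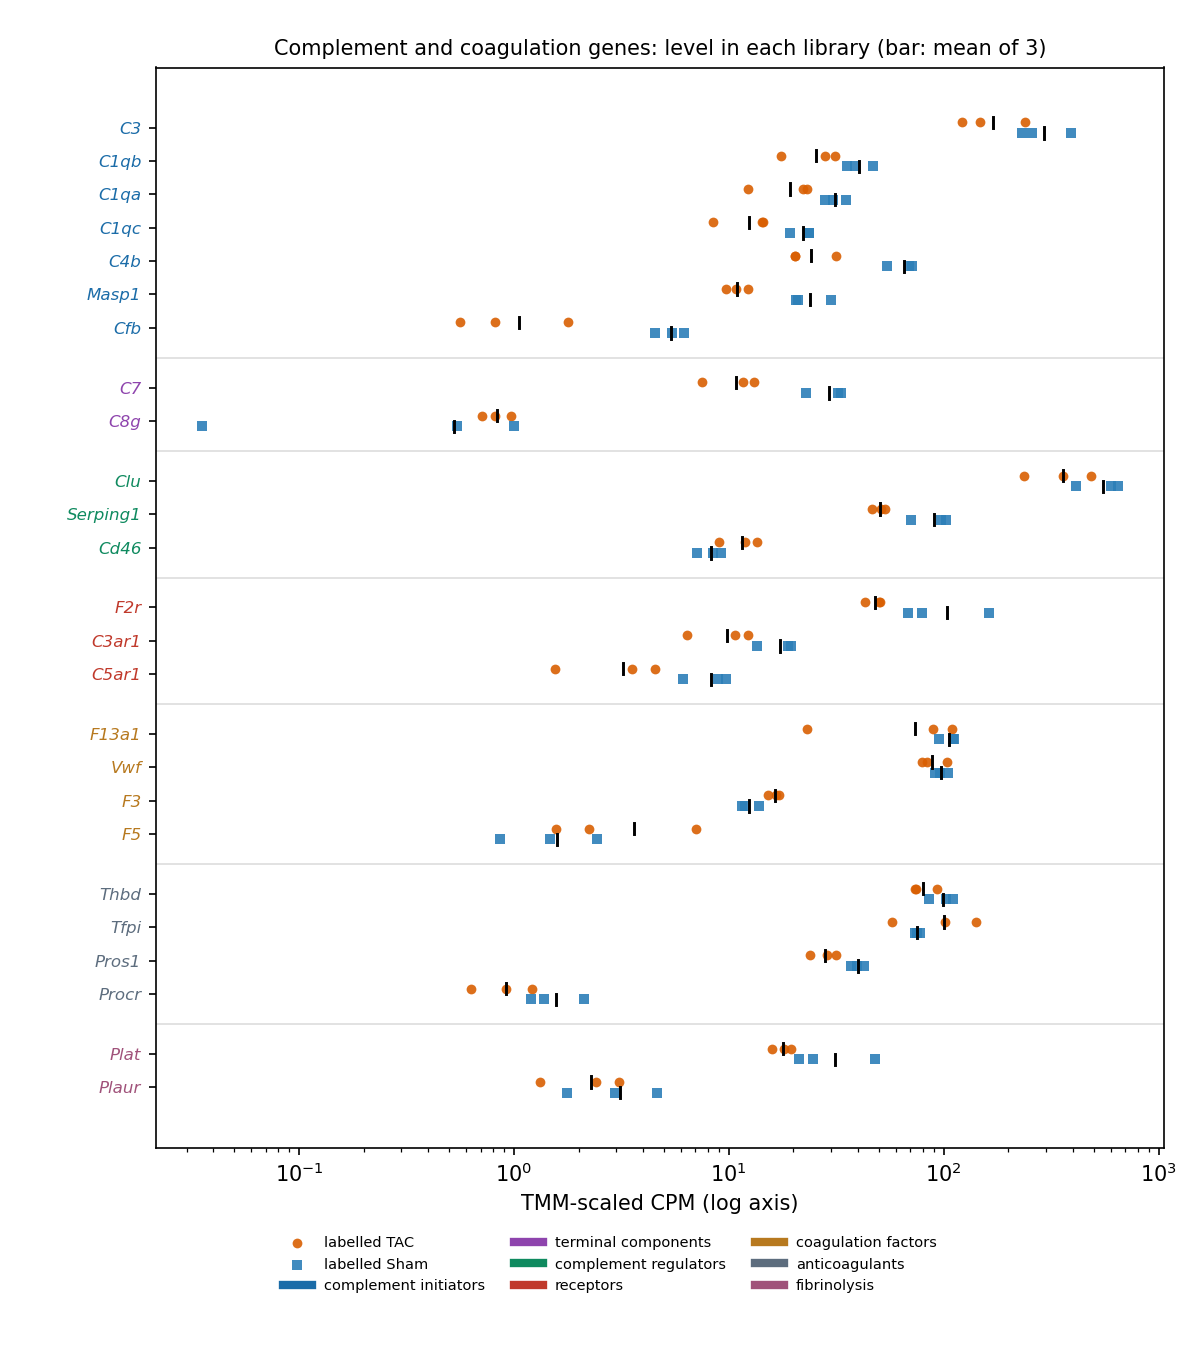
TMM-scaled CPM (log axis) of named members in each library, circles for the 3 TAC-labelled and squares for the 3 Sham-labelled libraries, with bars at the group means and gene names coloured by role. C4b, C7, Cfb, Masp1 and Serping1 show no overlap between the groups, whereas a single library stands apart for F2r (Sham 2) and F13a1 (TAC 3).

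Terminal components were close to absent apart from C7, which binds the nascent pore to the membrane. C7 stood at 13.1, 11.7 and 7.47 CPM in the TAC-labelled libraries and at 33.1, 32.1 and 22.9 CPM in the Sham-labelled ones. Every TAC value was below every Sham value, 2.73-fold apart (log2 difference -1.45, SE 0.24, edgeR adjusted p = 0.0396). C8g, the gamma chain of C8, was the only other terminal member tested, with 82 counts in all (log2 difference 0.71, SE 0.77, edgeR adjusted p = 0.646). Its estimate rested on Sham 2, which held 1 count, and was 0.10 without that library, while it was 1.67 without Sham 1. C6 was too sparse to test, with 2, 4 and 1 counts in the TAC-labelled libraries and 31, 20 and 3 in the Sham-labelled ones. Hc, the mouse gene of C5, had 6 counts over all libraries.

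Regulators were divided. Of 8 tested among 11, 5 had lower and 3 had higher estimates in the TAC-labelled libraries, and 2 were called. Among all tested genes, 49.1% had lower estimates there and 1.43% were called. Serping1, the inhibitor of C1r and C1s, stood at 46.4, 51.3 and 53.1 CPM in the TAC-labelled libraries and at 96.6, 102 and 70.6 CPM in the Sham-labelled ones. The groups were separate, 1.79-fold apart (log2 difference -0.84, SE 0.15, edgeR adjusted p = 0.0488). Clu, the most abundant member, overlapped: 357, 237 and 486 CPM against 411, 649 and 598 CPM (log2 difference -0.62, SE 0.27, edgeR adjusted p = 0.248).

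The regulators bound to cell membranes gave values on the other side of 0 or near it. Cd59a, which blocks insertion of C9 into the pore, stood at 32.0, 29.6 and 36.5 CPM in the TAC-labelled libraries and at 29.4, 29.2 and 21.4 CPM in the Sham-labelled ones, and Cd59b at 0.870 to 1.07 and 0.434 to 0.717 CPM. Both were above Sham in every TAC library and neither was called (log2 differences 0.29, SE 0.16, and 0.69, SE 0.34, with edgeR adjusted p of 0.329 and 0.289). These adjacent genes are close copies, so reads could be split between them. Cd46 stood at 9.04 to 13.6 CPM in the TAC-labelled libraries and at 7.10 to 9.18 CPM in the Sham-labelled ones (log2 difference 0.48, SE 0.19, edgeR adjusted p = 0.207). Cd55, the decay-accelerating factor, stood at 11.2 to 15.5 and 14.4 to 17.2 CPM (log2 difference -0.19, SE 0.16, edgeR adjusted p = 0.534). Cr1l (Crry), the main membrane regulator in mice, is outside the term and was added after its values were seen. It stood at 72.8 to 99.9 CPM in the TAC-labelled libraries and at 67.3 to 77.8 CPM in the Sham-labelled ones (log2 difference 0.21, SE 0.14, edgeR adjusted p = 0.424). Cfi, the protease factor I, had 1, 1 and 0 counts in the TAC-labelled libraries and 8, 9 and 2 in the Sham-labelled ones.

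Fibroblast markers differed in the same direction as the called members. All 10 markers on that list had lower estimates in the TAC-labelled libraries, as 49.1% of all tested genes did. Of the 10, edgeR called 1 (Mgp) and DESeq2 6, against 1.43% and 7.44% of all genes that they tested. The markers summed to between 1575 and 1855 CPM in the TAC-labelled libraries and between 2630 and 3312 CPM in the Sham-labelled ones. Per 1000 CPM of that sum, C4b stood at 10.9 to 20.1 in the TAC-labelled libraries and 20.8 to 25.0 in the Sham-labelled ones, C7 at 4.03 to 8.35 and 8.69 to 11.6, and Cfb at 0.312 to 1.14 and 1.36 to 2.35. With this sum, these ratios kept the groups apart. For Masp1 the ratios overlapped, at 5.42 to 7.80 and 7.24 to 9.02, and for Serping1 they were 28.6 to 29.5 and 26.8 to 34.0. The sum is weighted to Gsn, at 523 to 988 CPM in the TAC-labelled libraries and 696 to 991 CPM in the Sham-labelled ones (log2 difference -0.25). Other markers differed more, with log2 differences of -1.42 for Col1a1, -1.37 for Col3a1 and -1.62 for Mgp, beside -1.43 for C4b and -1.45 for C7. The remaining markers ran from -0.19 (Tcf21) to -1.14 (Pcolce), and the median of the 10 was -0.80. C4b and C7 thus had lower estimates than every marker but Mgp. The ratios, weighted in this way, do not show that C4b or C7 differed more than each fibroblast marker did. Whether the lower levels come with fewer fibroblasts was not tested beyond these values. Endothelial markers overlapped between the groups (1378 to 1473 and 1218 to 1530 CPM), and edgeR called 0 of 10, with 1 at an unadjusted p under 0.05 and 1 called by DESeq2. Cardiomyocyte markers had higher estimates in the TAC-labelled libraries for 10 of 10, of which edgeR called 0, with 7 at an unadjusted p under 0.05, and DESeq2 called 3.

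**Figure D4:**
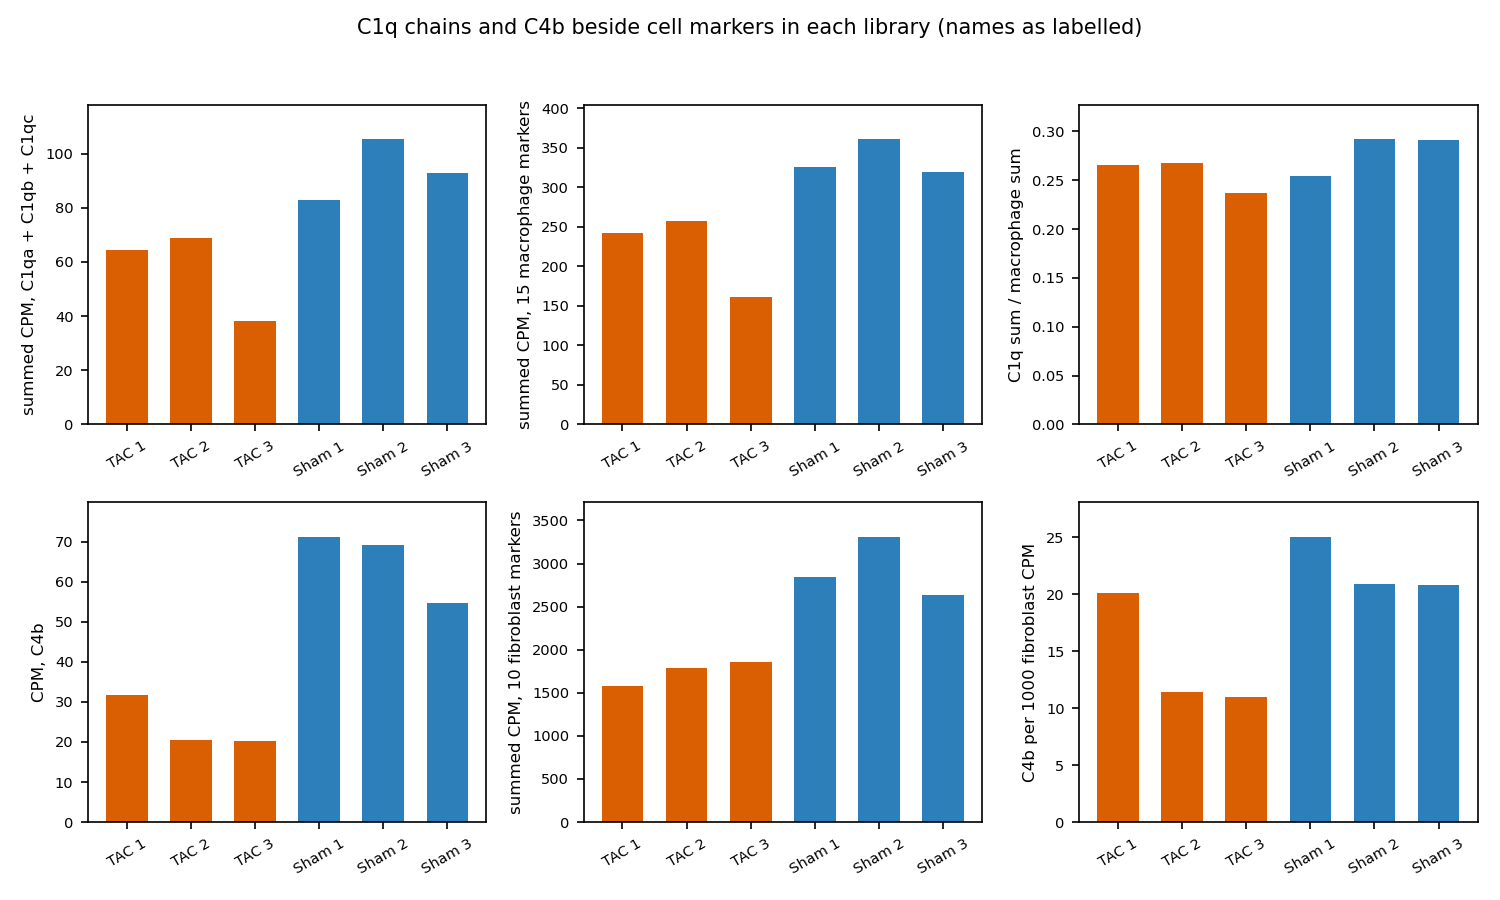
Bars for each library, named as labelled: summed TMM-scaled CPM of the 3 C1q chains, of 15 macrophage markers and the ratio of both sums in the upper row, and CPM of C4b, summed CPM of 10 fibroblast markers and C4b per 1000 CPM of that sum in the lower row. The C1q, macrophage, C4b and fibroblast bars are lower in all 3 TAC-labelled libraries, the ratio of C1q to macrophage markers overlaps between the groups, and C4b per fibroblast CPM (10.9 to 20.1 against 20.8 to 25.0) does not. The fibroblast sum is weighted to Gsn, the marker with the highest mean level in both groups.

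Receptors had lower estimates in the TAC-labelled libraries for 7 of 7 tested members (of 12), as 49.1% of all tested genes did. Their median log2 difference was -1.11. None was called by edgeR, with 4 at an unadjusted p under 0.05, against 20.9% of all tested genes. C5ar1, the receptor of the anaphylatoxin C5a, stood at 1.55, 4.53 and 3.56 CPM in the TAC-labelled libraries and at 6.12, 8.86 and 9.72 CPM in the Sham-labelled ones. The groups did not overlap (log2 difference -1.36, SE 0.37, edgeR adjusted p = 0.110). C3ar1, the receptor of C3a, stood at 10.7, 12.3 and 6.40 CPM against 13.5, 19.5 and 18.9 CPM, again without overlap (log2 difference -0.82, SE 0.26, edgeR adjusted p = 0.138). Vsig4, a complement receptor of resident macrophages, stood at 1.89, 0.865 and 0.305 CPM against 3.06, 3.99 and 2.39 CPM (log2 difference -1.62, SE 0.53, edgeR adjusted p = 0.151). DESeq2 called all 3 of these genes and F2r, where it called 7.44% of all genes.

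F2r stood at 50.8, 49.9 and 43.0 CPM in the TAC-labelled libraries and at 68.3, 163 and 79.5 CPM in the Sham-labelled ones. Sham 2 lay far above the rest, and the log2 difference of -1.11 (SE 0.31, edgeR adjusted p = 0.112) was -0.62 without it. The integrin chains of complement receptors 3 and 4 overlapped between the groups: Itgam stood at 4.07 to 18.4 CPM in the TAC-labelled libraries and 11.7 to 32.5 CPM in the Sham-labelled ones, Itgax at 0.102 to 0.814 and 0.812 to 2.33 CPM, and their partner Itgb2 at 3.71 to 10.7 and 8.37 to 11.3 CPM. For each of these 3 chains TAC 3 was the lowest library, as it was for the macrophage sum. TAC 1 stood apart in neutrophil markers, with a summed level over 8 markers of 24.8 CPM against 1.37 to 6.26 CPM elsewhere. The kinin receptors Bdkrb2 and Bdkrb1 had 31 and 3 counts in all, Cr2 had 18, and the thrombin receptor F2rl3 (PAR4), with 70 counts, was the most counted member that was not tested.

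Coagulation factors were split, with 2 of 5 tested members lower and 3 higher in the TAC-labelled libraries, none called by edgeR or DESeq2, 1 at an unadjusted p under 0.05 (20.9% of all tested genes) and a median log2 difference of 0.0027. F3, tissue factor, stood at 17.1, 16.6 and 15.2 CPM in the TAC-labelled libraries and at 13.9, 11.5 and 11.9 CPM in the Sham-labelled ones. It was the tested coagulation factor whose groups did not overlap, 1.31-fold higher in the TAC-labelled libraries, and it did not pass the test (log2 difference 0.39, SE 0.13, edgeR adjusted p = 0.158). F13a1, which encodes the fibrin-crosslinking factor XIII A chain and is known in macrophages and platelets, stood at 109, 88.9 and 23.2 CPM in the TAC-labelled libraries and at 95.1, 112 and 110.4 CPM in the Sham-labelled ones. TAC 3 alone was low, and the log2 difference of -0.52 (SE 0.46, edgeR adjusted p = 0.565) was -0.09 without it. Vwf, von Willebrand factor of endothelium and platelets, stood at 79.0 to 104 and 91.0 to 105 CPM (log2 difference -0.13, SE 0.13, edgeR adjusted p = 0.603), and F8, factor VIII, at 7.42 to 9.62 and 7.35 to 9.80 CPM. F5, factor V, stood at 7.01, 1.58 and 2.24 CPM in the TAC-labelled libraries and 0.861, 2.44 and 1.47 CPM in the Sham-labelled ones. TAC 1 set its estimate, which went from 1.16 (SE 0.61, edgeR adjusted p = 0.320) to 0.25 without that library. TAC 1 also held the highest summed level of platelet markers (38.1 CPM against 8.94 to 20.1 CPM elsewhere). Of the 6 tested platelet markers, 4 had higher and 2 lower estimates under the TAC label. The part of platelets in the F5 values was not tested. The other 11 coagulation factors were not tested, F10 having 42 and F7 35 counts in all and the remaining 9 at most 2.

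Anticoagulants included 5 tested members of 14, 4 with lower estimates in the TAC-labelled libraries (49.1% of all tested genes). None was called by edgeR, and 1 had an unadjusted p under 0.05. Pros1, protein S, the cofactor of activated protein C, stood at 31.5, 28.6 and 23.8 CPM in the TAC-labelled libraries and at 37.2, 42.7 and 39.6 CPM in the Sham-labelled ones. All Sham values were higher, 1.43-fold on average, with an adjusted p of 0.104 in edgeR (log2 difference -0.51, SE 0.13). DESeq2 called Pros1. Thbd stood at 74.3, 73.5 and 93.3 CPM against 85.6, 110.0 and 103 CPM (log2 difference -0.31, SE 0.14, edgeR adjusted p = 0.268), and Procr, the protein C receptor, at 0.628 to 1.22 against 1.20 to 2.12 CPM (log2 difference -0.75, SE 0.37, edgeR adjusted p = 0.289). Tfpi, which inhibits the tissue factor complex, stood at 57.5, 102 and 141 CPM in the TAC-labelled libraries and at 77.2, 75.1 and 73.5 CPM in the Sham-labelled ones. The TAC libraries were spread on both sides of the narrow Sham range (log2 difference 0.41, SE 0.28, edgeR adjusted p = 0.442). The Serpina1 genes, near-identical copies that encode alpha-1-antitrypsin in mice, had 0 to 27 counts each, and A2m had 11, 4 and 15 counts in the TAC-labelled libraries and 0, 2 and 3 in the Sham-labelled ones.

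The 4 tested fibrinolysis genes all had lower estimates in the TAC-labelled libraries, as 49.1% of all tested genes did. None was called by edgeR, and 2 had an unadjusted p under 0.05. DESeq2 called 1 of them, where it called 7.44% of all genes. Plat, tissue plasminogen activator, stood at 19.5, 18.1 and 15.9 CPM against 21.3, 48.0 and 24.8 CPM. Its log2 difference of -0.82 (SE 0.29, edgeR adjusted p = 0.175) was -0.37 without Sham 2. Plaur and Plau, the urokinase receptor and urokinase, overlapped between the groups (log2 differences -0.44, SE 0.42, and -0.20, SE 0.24, with edgeR adjusted p of 0.591 and 0.688). Plg, the source of plasmin, had no count.

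Among 57 other genes of complement and coagulation that the term leaves out, 35 were tested, 25 with lower and 10 with higher estimates in the TAC-labelled libraries. Of all tested genes, 49.1% had lower estimates there. Of the 57 genes edgeR called 2 and DESeq2 7, against 1.43% and 7.44% of all genes that they tested. Lrp1, an endocytic receptor that clears protease and inhibitor complexes, stood at 449, 455 and 405 CPM in the TAC-labelled libraries and at 834, 1101 and 761 CPM in the Sham-labelled ones (log2 difference -1.04, SE 0.16, edgeR adjusted p = 0.0346). Colec12, a scavenger receptor with a collectin domain, stood at 19.3, 22.4 and 23.1 CPM against 34.4, 38.6 and 35.3 CPM (log2 difference -0.74, SE 0.12, edgeR adjusted p = 0.0391). Both calls were kept without Sham 1, with adjusted p of 0.0426 and 0.0448, and lost when any of the other libraries was left out, at 0.0722 to 0.118. Serpine2, a thrombin inhibitor, was also without overlap, at 18.7 to 28.8 and 37.6 to 63.1 CPM, and was not called (log2 difference -1.07, SE 0.24, edgeR adjusted p = 0.0700). Cfp (properdin), which stabilizes the alternative convertase, stood at 2.49 to 6.48 and 2.40 to 6.03 CPM (log2 difference 0.17, SE 0.44, edgeR adjusted p = 0.858).

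The deposited lncRNA table, which the selection of members did not use, held 33 transcripts that overlap 15 of the members. Of these, 11 were tested and edgeR called 0, where it called 0.106% of all 16035 lncRNA transcripts tested. At an unadjusted p under 0.05 there were 5 (12.6% of all tested lncRNA transcripts), and DESeq2 called 1 (1.3% of those it tested). Those that overlapped C7, Masp1 and Pros1 were among the 5, with log2 differences of -1.78, -1.52 and -0.96, as was that at Tfpi, with 0.57. These 4, picked by their small p, had the sign of the gene that they overlap. The tested transcript inside Cfb had a log2 difference of 0.03, beside -2.34 for Cfb itself. Those tested at Cd46 had both signs, from -0.44 to 0.61, beside 0.48 for Cd46 itself. Whether counting used strand is not given in the sources here, so reads of a gene and of a transcript that overlaps it cannot be told apart.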

How the data were processed

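Left ventricle RNA was measured in 6 libraries, 3 per group, in a gene table and a lncRNA table. Per the submitters' processing notes, HISAT2 2.0.4, StringTie 1.3.0 and the build GRCm38 (mm10) were used; the counter, its strand setting and the annotation version are not given there or in the labels. The tables deposited by the authors hold whole-number read counts and FPKM values per library, and the FPKM values deposited by the authors served for levels between genes and in an alternative. Columns were tied to libraries by the description labels, and no value column was left over.

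Counts were tested with edgeR 4.0.16 (R 4.3.3): TMM scaling, filterByExpr with a minimum count of 10, quasi-likelihood test, Benjamini-Hochberg adjustment over all features of a table and a threshold of 0.05. The SE of a difference is its absolute log2 value over the root of the F statistic, and a lncRNA was assigned to a member whose interval it overlaps. lncRNA library sizes are the totals that the deposited FPKM values imply. Promoters came from RefSeq (GRCm38.p6), where 66 of the 86 members matched by symbol. DESeq2 1.42.0, limma 3.58.1 on log2(FPKM + 0.1) and log2(FPKM + 1), other scalings and filters, a replicate block and each library left out were the alternatives. The edgeR test with and without the block, DESeq2 and, for genes, limma on log2(CPM + 0.1) were tried on simulated counts first. The other alternatives, and the lncRNA library sizes implied by FPKM, were not.

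The members, role lists and marker lists were chosen with earlier results of these data known, and 2 members (Zp3r and Itgb2l) were given no role after the files were read. The rule for named genes took all called members, the 3 with the smallest p and the 2 with the highest FPKM per role, and of the genes outside the term those called and the 3 with the smallest p. Other members were named, after their values were seen, to account for a role. Some members counted here are not reported by name.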

Additional observations from a re-analysis of the deposited data

How the results depend on the processing

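The 6 calls among the members were kept with median-of-ratios scaling, with library totals without TMM, without the count filter and with limma at both pseudocounts, and 5 with a mean FPKM of at least 1, where Cfb is not tested. DESeq2 called 14. Leaving out each library in turn gave 0 to 3 calls, each time with fewer libraries. A replicate block left 2 calls, C4b and C7. Deviations from the group means correlated at -0.136, -0.118 and -0.096 between same-numbered libraries and at 0.014 to 0.111 between the other pairs. Such deviations sum to 0 within a group, so these correlations must balance. They cannot decide whether same-numbered libraries share a batch, and the labels give only the number. Over the 28 genes that the naming rule gives and all alternatives, 330 values kept their side of the threshold, 48 were weaker, 9 were stronger and none changed sign. Of the lncRNA transcripts at members, DESeq2 called 1, and the block, no filter and each library left out gave 0. Members with few counts, such as C6, C8g and Cfi, are limited by depth. 3 libraries per group limit the precision of all differences.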
